A study of Mus musculus with 4 samples.

Results

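Cytokines are secreted signals between cells, chemokines are the subset that direct cell migration, and both act through receptors on the cell surface. Toll-like receptors sense microbial products, Fc receptors bind the constant part of antibodies, and CD antigens are surface proteins first defined by antibodies on white blood cells. In white adipose tissue the resident macrophages, and in smaller numbers lymphocytes, mast cells and eosinophils, carry most of these proteins, and some of them are also made by fat, stromal and endothelial cells.

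The genes described here were chosen by symbol alone, as those beginning with Ccl, Ccr, Cxc, Cx3c, Il, Tnf, Tlr, Cd and a digit, Fcer or Fcgr, Csf, Clec, Ms4a, Ly and a digit, or Ear, without the fatty acid transporter Cd36. Of 8016 genes with an exonic single nucleotide polymorphism (SNP) on chromosomes 1 to 19, 139 met this rule. It used no measured value. RNA of the gonadal fat pad was sequenced from F1 mice of reciprocal crosses between C57BL/6J (B) and DBA/2J (D), all on chow, and reads carrying the B or the D base were counted at each SNP. BxD denotes a B mother and DxB a D mother. Of the 4 pools, that of DxB females held 2 animals and those of BxD females, BxD males and DxB males held 3 each, all aged 8 weeks per the labels, whereas the methods give another age. Each cross and sex was a single pool, so the 4 pools served as the replicates of the strain comparison, with both alleles measured in the same animals. Except where the pool is a block, the p-values below measure the spread of each allele's level between these pools and leave out the pairing. With the pool as a block they measure the spread of the allele ratio between pools.

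The labels of 2 pools, DxB female and BxD male, disagreed with the cross and sex in the names of their deposited tables. Every pool is therefore named here as it was labelled. On chromosome X, 40 genes had at least 100 reads and a share of each strain above 25% in some pool. The pool labelled DxB female had under 5% D reads in 36 of these, the pool labelled DxB male over 95% in 31, and the pools labelled BxD female and BxD male had neither in any of the 40, with medians of 52.4% and 47.5% D. An F1 male carries only its mother's X. On X the pool labelled DxB female thus read like a BxD male, and the pool labelled BxD male like a female. That is how their deposited tables are named (BxD male and DxB female). The B against D comparison does not depend on these labels, but the comparisons by mother's strain and by sex do, and those are given under both identities. Counted reads per pool ran from 3379195 to 4297890. A gene without an exonic SNP between B and D cannot be counted, so the markers give a partial check: 6 of 16 macrophage markers (C1qc among them) and 5 of 9 adipocyte markers (Car3 among them) had counted reads, and 0 of 6 B cell markers did, which says nothing about B cells.

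Of the 139 genes, 136 could be tested. The other 3, Cd9, Il1b and Ly75, had SNPs listing the same base for both strains and nothing else. The tested genes held 766 counted SNPs, of which 149 changed an amino acid, 231 were synonymous and 321 lay in 3′ untranslated regions by the deposited annotation. They carried 159949 reads, or 0.999% of all counted reads, with a median of 202 per gene against 270 over all genes. 81 genes had at least 100 reads and 17 had fewer than 10. Of a list of 26 well known immune genes, 15 had counted reads. Csf1, Csf1r, Tlr4, Ccl2, Il6, Il6st, Cd34, Cd74, Ms4a7 and Clec4n were among those not analysed here.

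The alleles read at single SNPs are given for 3 of the genes with the most unequal reads (Ear11, Cd1d1 and Cxcl12) and for Cd59a, whose D version recurs elsewhere in the genome. They are also given for 4 of the genes whose SNPs disagreed with each other (Fcer1g, Clec16a, Fcgr3 and Ccl9). Each run is 25 bases of the plus strand of mouse mm9, 5′ to 3′, with bases that differ between B and D in capitals and positions counted from 1 at the left end, so the counted SNP is base 13. The B base equalled the mm9 reference base at every SNP shown. The D base is that of the deposited SNP list. Where nearly all reads carried the B base, the counts cannot tell an unread D allele from a listed D base that the D animals do not carry. The authors sequenced DNA of D mice at some other SNPs read only as B, and found the D base at none of them.
Ear11 B, chr14:51875508-51875532: catgaggcaagcAttaggacatgtc
Ear11 D, chr14:51875508-51875532 (A13G, amino acid change): catgaggcaagcGttaggacatgtc
Cd1d1 B, chr3:86801475-86801499: cacaccagctgcCtatggccatgtg
Cd1d1 D, chr3:86801475-86801499 (C13A, amino acid change): cacaccagctgcAtatggccatgtg
Cxcl12 B, chr6:117129977-117130001: gtgtggtggtggTggggggatttct
Cxcl12 D, chr6:117129977-117130001 (T13G, 3′ untranslated): gtgtggtggtggGggggggatttct
Cd59a B, chr2:103944381-103944405: gcttctggctgtGttctgttccaca
Cd59a D, chr2:103944381-103944405 (G13C, synonymous): gcttctggctgtCttctgttccaca
Fcer1g B, chr1:173159999-173160023: ctggggtggtttCtcatgcttcaga
Fcer1g D, chr1:173159999-173160023 (C13T, synonymous): ctggggtggtttTtcatgcttcaga
Fcer1g B, chr1:173159771-173159795: cagggaaggaaaAagaaatgaagca
Fcer1g D, chr1:173159771-173159795 (A13G, 3′ untranslated): cagggaaggaaaGagaaatgaagca
Clec16a B, chr16:10576748-10576772: ctccctggagaaCcccgacaaggtg
Clec16a D, chr16:10576748-10576772 (C13T, synonymous): ctccctggagaaTcccgacaaggtg
Clec16a B, chr16:10742588-10742612: ctgttaaggttcTctgtccttagaa
Clec16a D, chr16:10742588-10742612 (T13C, 3′ untranslated): ctgttaaggttcCctgtccttagaa
Fcgr3 B, chr1:172987934-172987958: gctccggatggaActccAgttgtgg
Fcgr3 D, chr1:172987934-172987958 (A13C and A18C, amino acid changes): gctccggatggaCctccCgttgtgg
Ccl9 B, chr11:83388974-83388998: tggaaccccctcTtgctgataaagc
Ccl9 D, chr11:83388974-83388998 (T13C, amino acid change): tggaaccccctcCtgctgataaagc

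The first question was which of these genes were read unequally from the B and D alleles. With edgeR (quasi-likelihood, 8 allele libraries), Benjamini-Hochberg adjustment over all 7927 genes and a threshold of 0.05, 20 of 136 genes were called (14.7%), against 18.3% of all genes. B was higher in 11 and D in 9, whereas over all genes 13.3% were called with B higher and 5.06% with D higher. Among genes with at least 100 reads the call rate was 22.2% (18 of 81) against 22.1%. The share of genes called was therefore close to the background. The median log2 D to B ratio of the 136 genes was -0.06, against -0.03 over all genes, and D made up 49.1% of their reads, against 46.6% of all counted reads. Scaling both alleles of a pool by 1 library size moved the median of all genes from -0.03 to -0.15 and gave 12 B-higher and 5 D-higher genes, against 15.1% and 3.05% of all genes. With the pool as a block, which compares the alleles within each pool, 41 genes were called (30.1% against 32.7% of all genes), and these included all 20. B was higher in 22 and D in 19, against 19.3% and 13.4% of all genes. Removing every SNP where 1 allele held under 1% of the reads left 13 of 120 genes called, against 9.56% of all genes.

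Leaving out each pool in turn kept 11 of the 20 calls every time: Cxcl12, Cd1d1, Cd63, Cd59a, Cd151, Il9r, Cd247, Fcer1g, Ear11, Clec16a and Il3ra. The other 9 were lost without at least 1 pool, and 6 of these were D higher. Without the pool labelled DxB female 13 of the 20 were kept and the D-higher calls numbered 4, with Cd97, Cd200, Tnfrsf11b and Tnfrsf12a among those lost. Without the pool labelled DxB male 13 were kept and the D-higher calls numbered 5, with Cd200, Cxcl14 and Tnfrsf12a among those lost. Cxcl14 and Tnfrsf11b were also lost without the pool labelled BxD male.

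**Figure D1:**
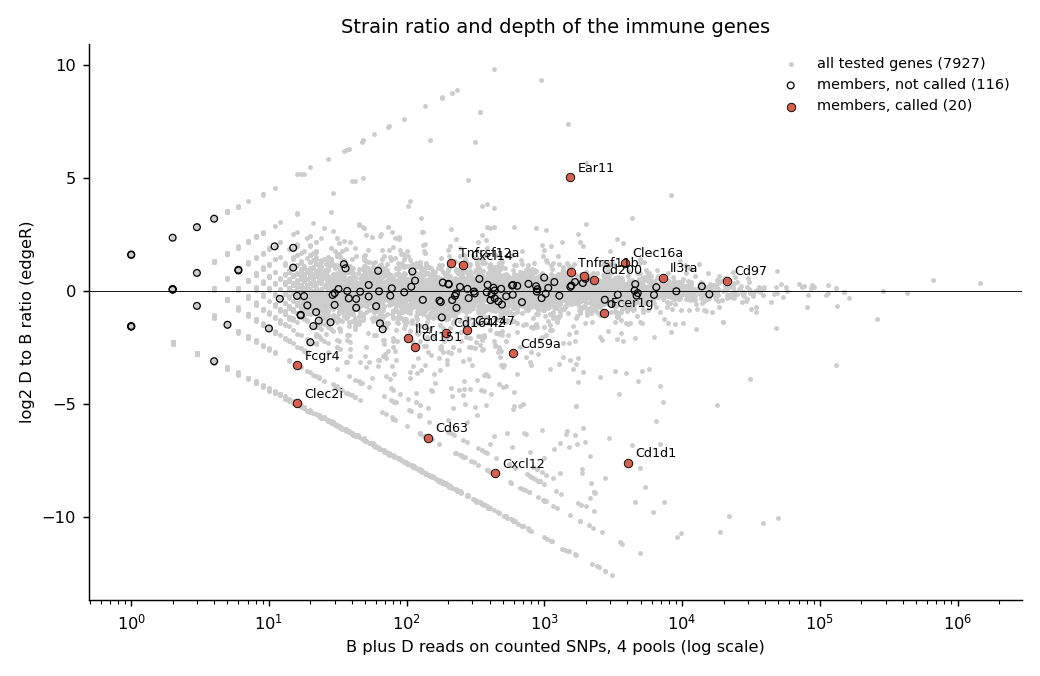
Log2 D to B ratio (edgeR) against B plus D reads on a log axis, for all 7927 tested genes (grey), for the 116 immune genes not called (open circles) and for the 20 called (red, 19 of them named). Ear11 stands alone above, Cd1d1, Cxcl12 and Cd63 far below, and most of the deeply read genes lie near 0.

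The counts by role are descriptive and are to be read against the 13.3% of all genes called with B higher and the 5.06% with D higher. The 41 tested CD antigens gave 6 B-higher and 2 D-higher calls (median log2 ratio -0.15), and the 6 Fc receptors gave 2 B-higher calls. The 18 ligands and receptors of the TNF family gave 2 calls, both D higher. The 13 chemokines gave 1 in each direction, the 11 interleukin receptors and binding proteins 1 with D higher, and the 7 C-type lectins 1 in each direction. None of the 6 Toll-like receptors, 5 TNF-induced proteins, 6 Ly antigens, 3 colony stimulating factors and receptors, or the 1 Ms4a gene was called, and the single Ear gene was. The interleukin group of 8 gave 1 call, Il9r, which is a receptor that the symbol pattern sorts with the ligands.

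**Figure D2:**
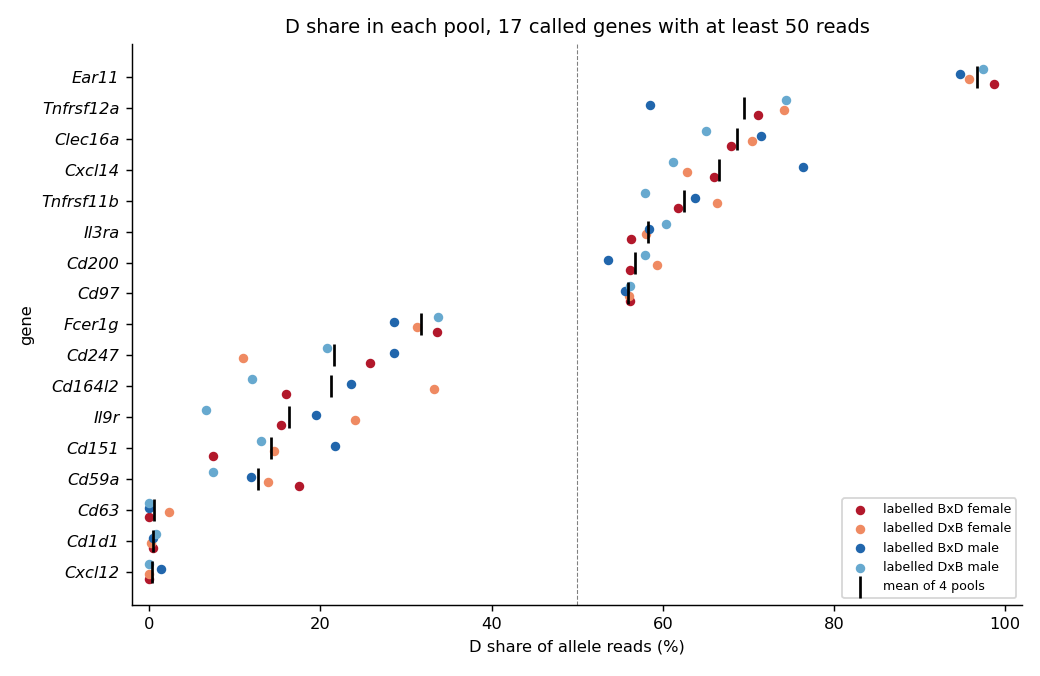
D share of allele reads in percent for 17 called genes with at least 50 reads, with a point for each pool and a bar at the mean of the 4 pools. The pools lay on the same side of 50% for each of these genes, and of the 8 genes above 50% Cd97 had the tightest cluster.

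Among the secreted signals, Cxcl12, the chemokine that retains leukocytes and progenitors through Cxcr4, had almost only reads with the B base. Its B reads numbered 167, 129, 73 and 66 in the pools of BxD females, DxB females, BxD males and, last, DxB males as labelled, an order kept for all values that follow. Its D reads were 0, 0, 1 and 0. The B to D ratio was 435 with an exact 95% counting interval of 77.7 to 17221, and the fitted log2 D to B ratio was -8.04 ± 0.54 (SE, adjusted p = 3.04e-07, edgeR). This value rested on 1 SNP in the 3′ untranslated region, and no SNP of the gene was left without those under 1% of one allele. Cxcl14, a chemokine of epithelia and fat, went the other way, with 32, 16, 17 and 19 B reads against 62, 27, 55 and 30 D reads. D was 2.23-fold higher (log2 1.16 ± 0.29, adjusted p = 0.0152, edgeR), again from 1 SNP, and its 58 intronic reads leaned the same way without a call (log2 0.98 ± 0.55).

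Ccl9, a macrophage chemokine, was an example of 1 gene with contradictory SNPs. Over its 3 SNPs it had 1895 B and 1176 D reads and was not called (log2 -0.56 ± 0.32, adjusted p = 0.296, edgeR), but it was called B higher with the pool as a block (-0.59 ± 0.08, adjusted p = 1.8e-05, edgeR). Its amino acid changing SNP gave 937 B and 4 D reads, or a D share of 0.504% ± 0.466 (SD, n = 4). Its other SNPs, both in the 3′ untranslated region, gave D shares of 54.2% ± 2.57 and 54.7% ± 4.93. Without the coding SNP the log2 ratio was 0.39 and was not called (adjusted p = 0.599, edgeR). The gap between the SNPs was thus far wider than the spread between pools, and the gene's direction depended on which SNP was read. The neighbouring gene Ccl6, both of whose SNPs are also listed for another gene, was called with D higher with the block (log2 0.32 ± 0.11, adjusted p = 0.0247, edgeR), as was Cxcl16, the ligand of Cxcr6 (0.56 ± 0.10, adjusted p = 0.000329), while Cxcl9, an interferon-induced chemokine, was called with B higher (-0.31 ± 0.11, adjusted p = 0.0414). None of these passed without the block (adjusted p from 0.219 to 0.251).

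Among the chemokine receptors that were not called, Ccr2, which brings monocytes into tissue, had 757 B and 813 D reads with no call (log2 0.26 ± 0.18, adjusted p = 0.407). B led in the pool labelled BxD female and D in the other 3. Cx3cr1, the fractalkine receptor of resident macrophages and monocytes, had only 96 reads, and its D share of 45.6% ± 18.4 left it undetermined.

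The largest D excess of the whole group was in Ear11, an eosinophil-associated ribonuclease that is also made by macrophages (chr14:51874941-51875787, minus strand). It had 8, 15, 18 and 6 B reads against 601, 344, 322 and 226 D reads. D reads made up 96.7% ± 1.75 (SD, n = 4), 33.4-fold more than B (log2 5.06 ± 0.30, adjusted p = 1.05e-07, edgeR). Both of its SNPs showed it, the coding one at 98.0% and the 3′ untranslated one at 96.2% D. The Ear genes of the mouse are a family of close copies, and reads may be split among them. Neither of the 25-base D versions occurs in the mm9 genome, and each B version occurs once.

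Among the TNF family, D was higher in Tnfrsf12a, the receptor for TWEAK, and in Tnfrsf11b, which encodes osteoprotegerin, the decoy receptor for RANKL. Tnfrsf12a had 13, 15, 27 and 11 B reads against 32, 43, 38 and 32 D reads at 1 SNP (log2 1.26 ± 0.30, adjusted p = 0.0101, edgeR). Tnfrsf11b had 228, 113, 125 and 114 B reads against 368, 223, 220 and 157 D reads (log2 0.85 ± 0.20, adjusted p = 0.0106). With 1 library size per pool Tnfrsf11b was not called (log2 0.73, adjusted p = 0.0539, edgeR). In Tnfrsf11b all 9 SNPs with at least 10 reads had more D than B reads. Tnfrsf1b, the second TNF receptor, had 9074 reads over 27 SNPs and a log2 ratio of 0.00 ± 0.13, and Tnf itself had 43 reads and no call. Tnfrsf18, which encodes GITR on T cells, just missed the threshold (B higher, log2 -0.73 ± 0.24, adjusted p = 0.0563) and was called with the block (adjusted p = 0.0189).

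Of the interleukin receptors, Il3ra, the alpha chain of the IL-3 receptor, was D higher with 880, 697, 831 and 613 B reads against 1131, 965, 1168 and 933 D reads. The log2 ratio was 0.61 ± 0.12 (adjusted p = 0.00221, edgeR), and leaving out any 1 pool kept the call. Of its 13 SNPs with at least 10 reads, 10 had more D than B reads. Il9r, the IL-9 receptor of mast and T cells, was B higher with 22, 19, 29 and 14 B reads against 4, 6, 7 and 1 D reads (log2 -2.08 ± 0.43, adjusted p = 0.00393). Only 2 of its 22 counted SNPs had at least 10 reads, and both had more B than D. Il6ra, the IL-6 receptor, was not called (log2 -0.19 ± 0.17), with B ahead in 3 pools and D ahead in the pool labelled BxD male.

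Cd1d1, which presents lipid antigens to natural killer T cells and is also made by adipocytes, showed the most reads of any strongly unequal gene here. It had 817, 1139, 1052 and 1011 B reads against 4, 2, 5 and 8 D reads at 1 amino acid changing SNP. The D share was 0.480% ± 0.249 (SD, n = 4; log2 -7.58 ± 0.32, adjusted p = 4.96e-09, edgeR). With no second counted SNP, exonic or intronic, this could not be checked elsewhere in the gene, and whether the D animals carry the listed D base was not tested for Cd1d1, Cxcl12 or Cd63. Cd63, a tetraspanin of lysosomes and mast cell granules, had 143 B reads and 1 D read over 2 coding SNPs, a ratio of 143 with a counting interval of 25.3 to 5687 (log2 -6.49 ± 0.60, adjusted p = 5.33e-06). The 25-base B version at each of the Cd63 SNPs occurs at 2 places in mm9, so these reads may not all come from Cd63. For Cxcl12 and Cd1d1 the B version occurs once and the D version nowhere.

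Cd59a, an inhibitor of complement on the cell surface, had 104, 118, 148 and 149 B reads against 22, 19, 20 and 12 D reads. B was 6.69-fold higher (log2 -2.74 ± 0.24, adjusted p = 3.87e-06, edgeR). Its deepest SNP had 457 B and 53 D reads, and the D version of the 25 bases around it also occurs at another place on chromosome 2, which starts at 103919068 and lies outside Cd59a. Whether this moved D reads to that place was not tested. The intronic SNPs of Cd59a also gave B higher, though less so (log2 -1.50 ± 0.37, adjusted p = 0.00155). Cd151, another tetraspanin, had 25, 35, 18 and 20 B reads against 2, 6, 5 and 3 D reads at 1 SNP of the 3′ untranslated region (log2 -2.45 ± 0.40, adjusted p = 0.000698).

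Cd247, the zeta chain of the T cell receptor, was B higher, with 66, 65, 45 and 38 B reads against 23, 8, 18 and 10 D reads (log2 -1.73 ± 0.29, adjusted p = 0.000796, edgeR). Of its 7 counted SNPs, 5 are called intronic by the annotation column, and without such SNPs the call was lost, although the log2 ratio was -1.99 (adjusted p = 0.0927, edgeR). Its intronic SNPs held 898 B and 303 D reads, with a ratio of -1.45 ± 0.19 (adjusted p = 8.9e-10). Cd164l2, a little studied relative of the sialomucin Cd164, was also B higher on exonic (-1.82 ± 0.47, adjusted p = 0.0159) and on intronic SNPs (-2.24 ± 0.64, adjusted p = 0.00999). Its call was lost without the pool labelled BxD female or DxB male.

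The 2 D-higher CD antigens were called on smaller differences. Cd97, an adhesion receptor of leukocytes, was the most deeply read gene of the group with 21148 reads over 13 SNPs. Its B reads were 2679, 2167, 2330 and 2135 and its D reads 3428, 2763, 2910 and 2736, so that the D share was 56.0% ± 0.295 (SD, n = 4; log2 0.47 ± 0.11, adjusted p = 0.0112, edgeR). By exon the share went from 47.6% ± 7.07 to 60.0% ± 1.37, and the intronic reads showed no such excess (-0.10 ± 0.19, adjusted p = 0.821). Cd200, whose protein restrains myeloid cells through its receptor, had a D share of 56.8% ± 2.47 (log2 0.52 ± 0.13, adjusted p = 0.012). Neither Cd97 nor Cd200 was called with 1 library size per pool or without the pool labelled DxB female.

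The macrophage markers Cd68 and Cd163 and the surface antigens Cd44 and Cd93 were not called, with D shares between 45.3% and 53.2%. Cd44 (log2 0.31 ± 0.07, adjusted p = 0.00142) and Cd93 (0.19 ± 0.06, adjusted p = 0.0191) were called D higher with the pool as a block in edgeR. Cd14, the co-receptor of Tlr4, was D higher in all 4 pools with 149, 104, 85 and 78 B reads against 225, 119, 112 and 124 D reads. Its adjusted p was 0.056 (log2 0.61 ± 0.20, edgeR), and 0.000103 with the block. Cd300lg, a receptor of capillary endothelium and the second most deeply read gene, was at 45.5% ± 0.929 D (log2 -0.13 ± 0.12, adjusted p = 0.537), and was called B higher with the block (adjusted p = 0.0207). Its SNPs disagreed: a synonymous one was at 22.8% ± 3.59 D and 1 in the 3′ untranslated region at 51.3% ± 1.94. Among the other genes gained with the block were Cd5l, a secreted macrophage protein, Cd180, Cd244, Ly9, Tlr1, Csf3r and Il11ra1 with B higher, and Tlr9, Clec14a, Fcgrt, Tnfaip3 and Tnfrsf21 with D higher.

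Of the Fc receptors, Fcer1g, the gamma chain shared by several activating Fc receptors, was called B higher. It had 579, 500, 357 and 393 B reads against 293, 228, 143 and 200 D reads (log2 -0.95 ± 0.18, adjusted p = 0.00257, edgeR). Its 3 SNPs lie in 1 exon and disagreed: the coding SNP was at 19.6% ± 1.38 D (SD, n = 4), the next at 24.2% ± 6.36 and the last, in the same 3′ untranslated region, at 54.8% ± 3.32. The intronic ratio was -0.33 ± 0.24 and not called. Fcgr4, a low-count activating receptor of myeloid cells, was B higher with 15 B reads and 1 D read in all (adjusted p = 0.0419), and 1 of its pools had 1 read of each allele.

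Fcgr3, a receptor for immunoglobulin G on macrophages, was not called (log2 -0.15 ± 0.25, adjusted p = 0.75, edgeR) although its exons disagreed. One exon held 5 listed SNPs, each with 4 neighbours within 49 bp, and its 2 counted SNPs gave 437 B reads and 0 D reads. The 3 close SNPs that were not counted gave 0 of 349, 1 of 151 and 4 of 301 D reads. The last exon, with 4 SNPs, was at 52.0% ± 0.844 D (SD, n = 4), although 1 of the 4, in the 3′ untranslated region, was at 23.7% ± 5.54. Without SNPs under 1% of one allele the ratio was 0.19. Fcgr2b, the inhibitory Fc receptor, had 95 B and 107 D reads, and Fcgrt, which recycles immunoglobulin G, had 6746 and 7154.

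Reads were 50 bases long and could differ from the reference at up to 3 bases, so the D share was compared by the number of other listed SNPs within 49 bp. In the immune genes it was 48.1% ± 0.722 (SD, n = 4 pools) with no neighbour, 53.9% ± 0.76 with 1, 48.6% ± 1.93 with 2 and 32.8% ± 3.61 with 3 or more. The 32 SNPs of the last class held 1774 reads, and these include the 437 of the Fcgr3 exon. Without Fcgr3 the 4 classes gave 48.2%, 53.5%, 48.6% and 43.3% ± 1.93 D, the last from 30 SNPs and 1337 reads. Over all genes the same classes gave 47.2%, 46.6%, 44.8% and 36.3%. Without SNPs of the last class all 20 calls were kept and Tnfrsf18 was added, against 18.2% called of all genes.

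**Figure D3:**
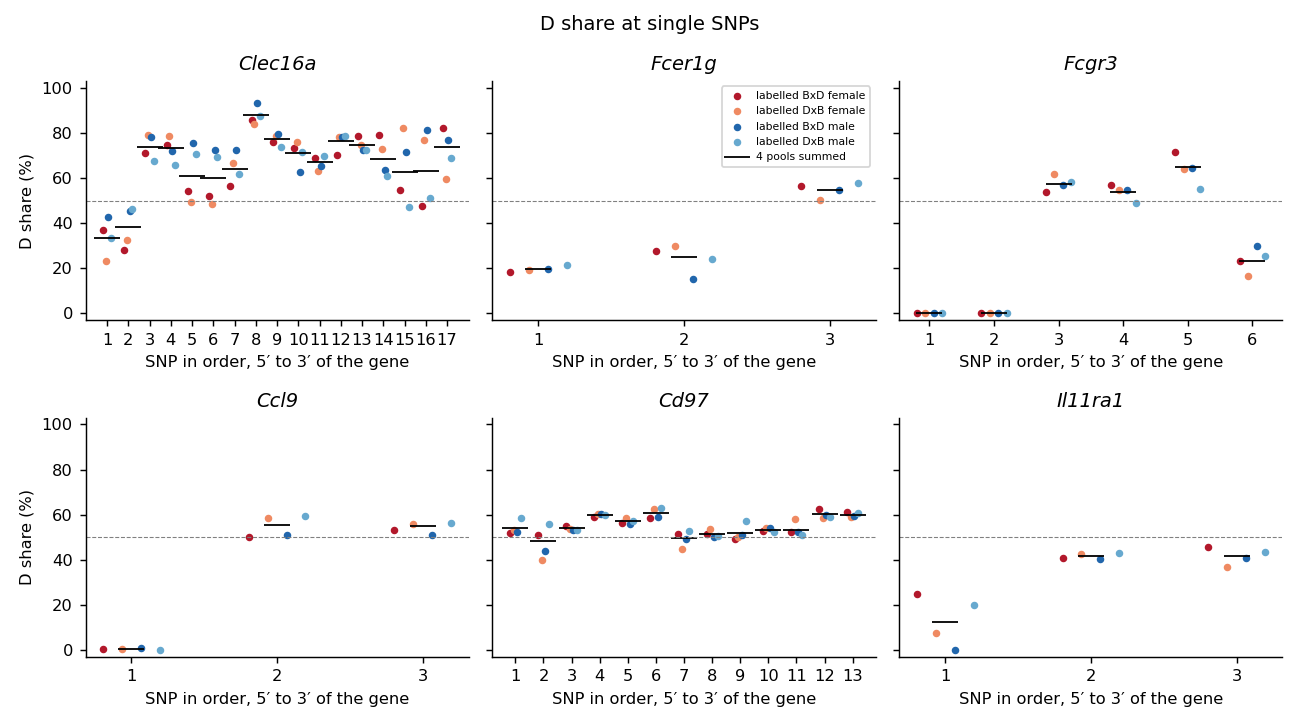
D share in percent at each counted SNP with at least 10 reads of 6 genes, in 5′ to 3′ order, with a point for each pool and a bar for the 4 pools summed. Clec16a crosses 50% after its second SNP, Fcgr3 and Ccl9 start at or near 0%, and Cd97 stays between 48.3% and 60.8%.

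Among the C-type lectins, Clec16a, which takes part in autophagy and is named for a lectin-like domain, was D higher, with 300, 318, 284 and 294 B reads against 635, 756, 713 and 548 D reads (log2 1.26 ± 0.14, adjusted p = 2.54e-05, edgeR). The excess came from the 3′ part of the gene (chr16:10545457-10744971, plus strand). The first 2 exons with SNPs were at 34.0% ± 8.29 and 38.0% ± 9.06 D (SD, n = 4), from 51 and 157 reads. The next exon was at 74.0% ± 5.67 and the last, with 14 SNPs and 3479 reads, at 70.4% ± 3.14. The highest pool of either 5′ exon, 46.2%, was under the lowest pool of either 3′ exon, 66.1%. Its intronic SNPs, with 503 B and 288 D reads, were B higher (log2 -0.70 ± 0.19, adjusted p = 0.0071, edgeR), the opposite of the exonic total. Clec2i, a ligand of natural killer cell receptors, had 16 B reads and 0 D reads, at least 5.33-fold lower in D against a floor of 3 counts over the 4 pools, and it lost its call when any 1 pool was left out. Clec7a, the beta-glucan receptor Dectin-1, had a D share of 42.9% ± 2.78 and no call.

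Intronic SNPs gave a readout that the choice of genes did not use. Reads there may come from unspliced RNA, but their origin was not tested. Of the genes described, 106 had intronic reads and 14 were called on them, against 11.4% of all 9422 genes tested. B was higher in 8 and D in 6, against 7.3% and 4.13% of all genes. Of the 13 genes called on exonic SNPs with at least 20 intronic reads, 10 had the same sign in introns. The intronic call was in the same direction in 5 (Cd59a, Cd164l2, Cd247, Tnfrsf11b and Il3ra) and opposite in 1, Clec16a. How often all genes called on exonic SNPs matched in introns was not computed, so these counts have no background beside them. In Il3ra the intronic reads gave 0.70 ± 0.17 beside 0.61 ± 0.12 in exons, and in Tnfrsf11b 1.47 ± 0.41 beside 0.85 ± 0.20.

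A further 8 genes were called on intronic SNPs alone. Tnfaip8, an inhibitor of apoptosis induced by TNF, had 226 B and 209 D exonic reads but 9 B and 139 D intronic reads (log2 3.94 ± 0.44, adjusted p = 5.31e-12, edgeR). Il11ra1, the IL-11 receptor, was D higher in introns (1.47 ± 0.32, adjusted p = 0.000274) and had an uncalled exonic ratio of -0.37 ± 0.21. All of its counted exonic SNPs carry an intronic annotation, and the 2 deepest are also listed for another gene. Csf2ra, the GM-CSF receptor, was B higher in introns (-1.14 ± 0.20, adjusted p = 3.37e-06) beside -0.19 ± 0.24 in exons. Cd38, an NAD-consuming surface enzyme, was likewise B higher in introns (-1.21 ± 0.23, adjusted p = 3.41e-05), as was Clec2g (-1.06 ± 0.22, adjusted p = 0.000123), whose 36 exonic reads gave 1.02 ± 0.74. Cd244 was B higher, and Cd82 and Cd22 D higher. The difference between exonic and intronic ratios was not itself tested.

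**Figure D4:**
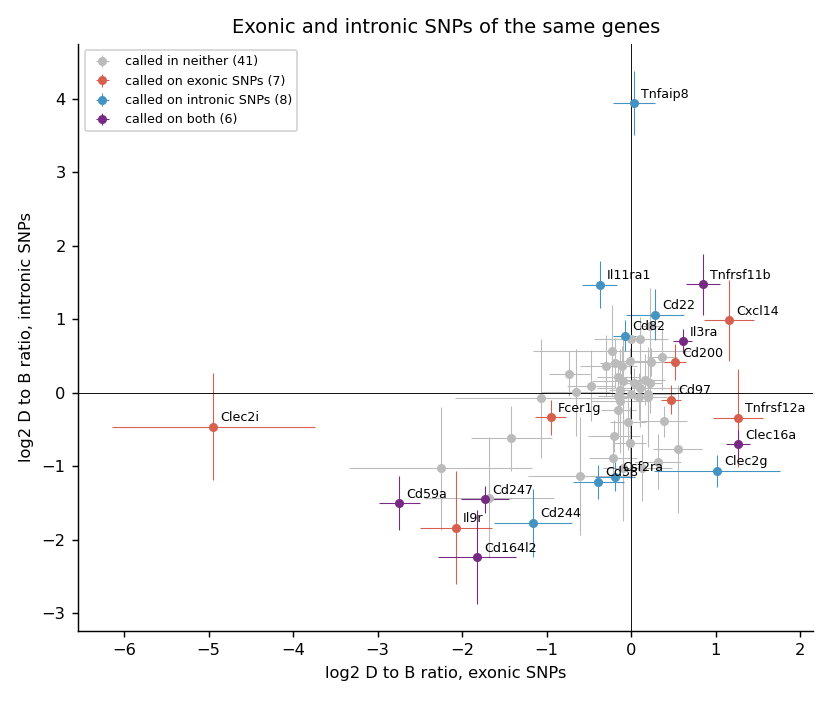
Log2 D to B ratio on exonic SNPs against that on intronic SNPs for the 62 tested genes with at least 20 intronic reads, with bars of 1 SE in each direction and colours for the calls. The 6 genes called on both lie in matching quadrants, except Clec16a, and Tnfaip8 stands at 3.94 in introns with an exonic ratio near 0.

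The reciprocal crosses also allow the mother's allele to be compared with the father's, and the sexes to be compared for their allele ratio. By the labels, edgeR called 0 of 136 genes for parent of origin, against 0% of all genes, with 0 at an unadjusted p under 0.05, and DESeq2 also gave 0 and 0. By the identity in the names of the deposited tables it called 0, against 0.0505% of all genes. There 1 gene had an unadjusted p under 0.05 (Il18bp, which binds and blocks IL-18). For strain by sex, edgeR called 0 under either identity, against 0.101% of all genes by the labels and 0% by the tables. Unadjusted p was under 0.05 for 3 genes by the labels (Cd5l, Il18bp and Tlr1) and for 0 by the tables, and DESeq2 gave 0 calls with 1 such gene by the labels. With the pool as a block the calls stayed at 0 in both comparisons. The parent of origin model had no term for strain, so strain differences widened its spread. Without the block, edgeR gave an unadjusted p under 0.05 by the labels for 35 of all 7927 genes for parent of origin. For strain by sex it did so for 64. Both are fewer than that threshold gives by chance, so 0 calls do not show that no gene differed.

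Levels were compared without a test, since each cross and sex was 1 pool, and in bulk tissue fewer cells of a type and less RNA per cell cannot be told apart. Summed over the genes, B plus D reads were 11064, 9692, 8787 and 10482 CPM (B plus D reads scaled to the total counted reads of each pool). The macrophage markers moved over a wider range, at 5614, 4233, 3334 and 4679. Of the 81 genes with at least 100 reads, 48 were highest in the pool labelled BxD female, 19 in that labelled DxB male, 9 in that labelled BxD male and 5 in that labelled DxB female. The same count over all genes was not made. These CPM are shares of a pool's reads, and the adipocyte markers were lowest in the pool labelled BxD female (117994, 147927, 153908 and 136416 CPM). The order is therefore not to be read as particular to the immune genes. Cd68, the macrophage lysosome protein, stood at 423, 433, 232 and 489 CPM, and Cd163, the haemoglobin scavenger receptor, at 102.6, 47.8, 55.3 and 58.3. Ear11 stood at 142, 85.7, 82.1 and 68.7. The mast cell markers Fcer1a and Tpsb2 summed to 366, 133, 283 and 126 CPM, and the mesothelial markers Upk1b and Wt1 to 108, 28.4, 56 and 22.8. In both lists the higher pools were the BxD pools by the labels, but the female pools by the names of the deposited tables. The part of these cells in the levels was not tested.

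**Figure D5:**
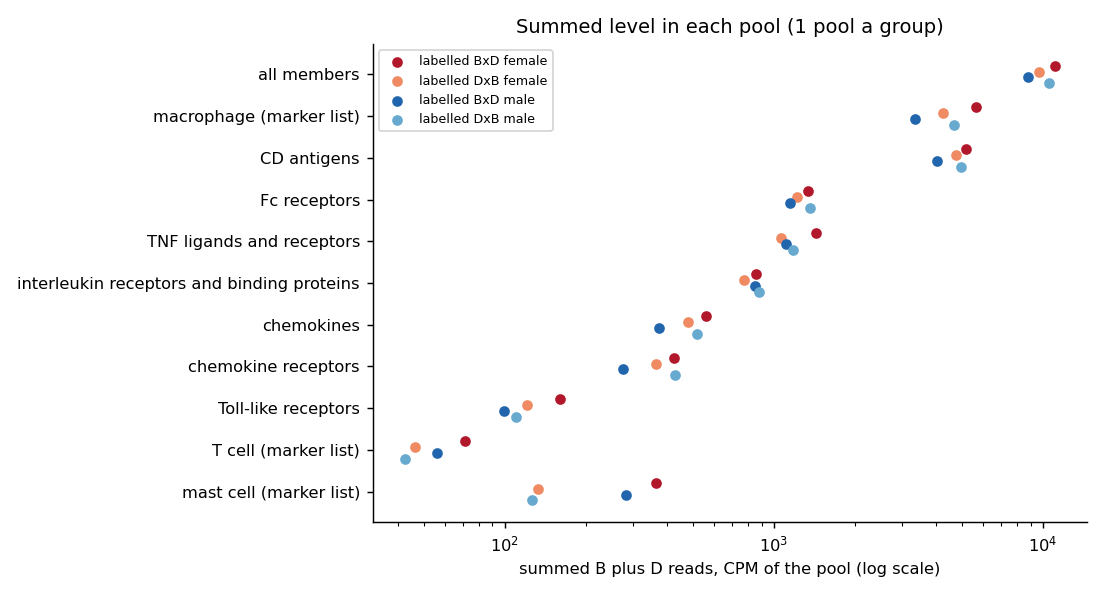
Summed B plus D reads in CPM (log axis) in each pool, for the whole group of genes, 7 of its role groups and 3 marker lists. The group as a whole differed 1.26-fold between the highest and lowest pool and the mast cell list 2.89-fold.

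Of 50 genes that carry signals from cytokine and Toll-like receptors into the cell, 27 could be tested and 5 were called (18.5%, against 18.3% of all genes). B was higher in 4 and D in 1, against 13.3% and 5.06% of all genes. Of the B-higher ones, Stat3, Socs7 and Jak1 had no D read and no SNP left without those under 1% of one allele. For Stat3, the authors' Sanger sequencing of D mice found the B base at this SNP, so it cannot separate the alleles. For Socs7 and Jak1, whether the alleles differ cannot be told from these counts. Nfkb2 was B higher (log2 -0.36 ± 0.11, adjusted p = 0.0417, edgeR). Map3k7, the kinase TAK1 that joins these receptors to NF-kappaB, was D higher with 1382 B and 1879 D reads (0.57 ± 0.13, adjusted p = 0.00596). With the block 8 were called, against 32.7% of all genes.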

How the data were processed

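RNA of the gonadal fat pad from 4 pools of F1 mice was sequenced, and the authors deposited raw counts of reads carrying the B and the D base at each SNP, with a gene and an annotation per SNP. Per the methods, reads of 50 bases were aligned to mm9 by mrsFAST with up to 3 mismatches, with D variants masked, then by TopHat (version 1 in the submitters' processing notes, which also list CASAVA), and uniquely mapped reads were kept.

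Rows marked exonic on chromosomes 1 to 19 were used. SNPs listing the same base for both strains were left out, only the first of SNPs 18 bp or less apart in an exon was kept, and counts were summed per gene without a minimum. A read can be counted at more than 1 SNP. Gene positions and sequences are from the mm9 genome (NCBIM37) and its GENCODE annotation, which matched 136 of the 139 genes by symbol. The members of the group and all lists were chosen with earlier results of these data known.

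Strain was tested with edgeR (4.0.16) quasi-likelihood, TMM scaling and Benjamini-Hochberg adjustment over all 7927 genes, as in the methods with 8 allele libraries and no covariate. Parent of origin was tested likewise, with no term for strain. Strain by sex was tested as the interaction in a model with terms for strain and sex. Both alleles of a pool come from the same animals: their deviations correlated at r = 0.592 on average (0.509 to 0.634), against -0.197 between pools, across 5114 genes, which are not independent. On simulated counts for 7784 genes 195 of 200 changed genes were recovered, and 0 were called with none changed. Only well read genes were changed, by large ratios, and the libraries were drawn independently with a fixed spread. These counts therefore do not cover shallow genes, smaller ratios or the pairing of alleles within a pool. Counting intervals cover counting error only. SNP-based reads of different genes are not comparable as levels.

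Alternatives were DESeq2, the pool as a block, other SNP filters, a minimum of 10 reads, 1 library size per pool and leaving out each pool. Named genes were those called, with at least 50 reads and the same direction in all 4 pools (up to 12 each way), the 8 with the most reads, and the list of 26. Others were named after their values were seen. 1 member is not reported here by name.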

Additional observations from a re-analysis of the deposited data

Results flagged for a closer look

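For 3 called genes the D share of 1 pool stood apart from the other 3, which were all at 0%. Chance flags about 1 in 20 groups in general, but with 3 pools at 0% any single D read in the other is flagged, so these flags were fixed by the counts. Cxcl12 had a D share of 1.35% in the pool labelled BxD male, from 1 D read beside 73 B reads. Cd63 had a D share of 2.38% in the pool labelled DxB female, from 1 D read beside 41 B reads. Fcgr4 had a D share of 50% in the pool labelled BxD male, from 1 read of each allele. Each rested on a single D read. What these reads were was not tested.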

How the results depend on the processing

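With the pool as a replicate block the strain calls rose from 20 to 41 (22 B higher, 19 D higher); of the 20, none was lost. Without SNPs under 1% of one allele there were 13 calls, 5 with B higher, and Cd1d1, Cd63, Clec2i, Cxcl12, Fcgr4 and Il9r were among those lost, 4 of them (Cd1d1, Cd63, Clec2i and Cxcl12) because no SNP of theirs was left. With 1 library size per pool there were 5 D-higher calls. Leaving out each pool in turn gave 13 to 17 calls, 8 to 11 with B higher and 4 to 9 with D higher. DESeq2 lost Fcgr4 and the annotation column lost Cd247. Spacing of 50 bp, all exonic SNPs, same-base SNPs kept, a minimum of 10 reads, and the options added after seeing the data (SNPs with under 3 neighbours, SNPs of 1 gene) lost none of the 20. The planned selection by the exon column was the same as that reported and gave no separate value. No called gene changed sign under these alternatives. For parent of origin and strain by sex the calls were 0 under every alternative run, the block and each left-out pool included. The causes were not tested. Depth limits the shallow genes: 81 of 136 had at least 100 reads, and 17 had under 10. With 1 pool for each cross and sex, levels could not be tested.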
